A study of Homo sapiens with 6 samples.

Results

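Aldehyde dehydrogenases were described by 10 genes (ALDH1A1, ALDH1A3, ALDH1B1, ALDH1L2, ALDH2, ALDH3A2, ALDH4A1, ALDH7A1, ALDH9A1 and ALDH18A1) of the 57150 genes in the deposited table. They were chosen by gene symbol. A repeated symbol was to be settled by the highest mean FPKM over the 6 libraries, but each symbol had 1 row, so no measured value decided which rows were used. The RNA-seq libraries were made from the human cancer cell line MDA-MB-435 after knockdown of ZCCHC24, a CCHC zinc finger protein (ZCCHC24 KD, n = 3), or from the matching controls (ZCCHC24 CTRL, n = 3). For the way the knockdown was made, the nature of the control and the time after knockdown, the sources used here give nothing. Nothing in the labels says whether the libraries of a group were grown as separate cultures, and the p-values therefore cover only the spread between these libraries, which may be technical. Values are FPKM, in which fragments are divided by transcript length and library size, so that levels of different genes can be set side by side. The table gave no read totals, so the depth behind each value is unknown in absolute terms. The steps between low values, which reflect depth together with any scaling, differed at most 1.26-fold between libraries.

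Aldehyde dehydrogenases oxidise reactive aldehydes to carboxylic acids with NAD or NADP as the cofactor. Some members clear aldehydes from ethanol, lipid peroxidation and membrane lipids, some make a signalling molecule (retinoic acid), and others are steps of amino acid, choline, carnitine and folate metabolism. In tumours of several tissues, the breast included, ALDH1A1 and ALDH1A3 are used as markers of cells with stem-like features. ALDH18A1 differs in direction, as its aldehyde dehydrogenase-like domain reduces an activated glutamate on the way to proline.

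The targeted gene checked the labels. ZCCHC24 was listed at 1.54, 1.69 and 1.81 FPKM in knockdown libraries 1 to 3 and stood at 12.3 to 13.2 FPKM in the controls, and the exact permutation test (two-sided) had p = 0.1, which no comparison of 3 with 3 libraries can go below. The labels give breast as the tissue, whereas, as background, genotyping has traced the line to a melanoma. Of the 8 breast epithelial markers looked at, ESR1 averaged 0.276 FPKM in knockdown and 0.232 FPKM in control libraries, and PGR and GATA3 were also below 1 FPKM in both groups. KRT19, EPCAM and CDH1 averaged 3.97, 1.43 and 1.46 FPKM in knockdown and 4.36, 1.72 and 2.05 FPKM in control libraries. KRT8 and KRT18 were higher after knockdown (limma adjusted p below 0.05), at 44.8 and 90.8 FPKM, against 27.5 and 70.4 FPKM in control libraries. The 8 breast markers summed to 140.2 to 149 FPKM in knockdown and 98.1 to 115 FPKM in control libraries. The 7 melanocyte markers (PMEL, MLANA, TYR, TYRP1, DCT, SOX10 and MITF) summed to 1297 to 1361 FPKM in knockdown and 1824 to 1932 FPKM in control libraries. Of the 7, 6 were lower at a limma adjusted p below 0.05. By the same threshold, 35.4% of all tested genes were lower and 37.0% higher. The part of these marker shifts in the results below was not tested. In bulk RNA, fewer cells with a transcript and less of it per cell cannot be told apart.

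After knockdown, 5 of the 8 testable members fell, with ALDH1L2 and ALDH7A1 left at 43.9% and 45.8% of their control means, and 3 rose, ALDH1A1 the most. Among the 8 members that passed the filter for testing, a 6-library mean of 1 FPKM or more, 3 rose and 5 fell at an adjusted p below 0.05 from limma with Benjamini-Hochberg correction over all 13343 tested genes. Each of the 8 was above 1 FPKM in every library of both groups, and ALDH1A3 and ALDH2 were below it in every library. Across all tested genes 37.0% were higher and 35.4% were lower, together 72.4%, so a call by itself does not set a gene apart in these data, and the members were named with earlier results known. The median change of the 8 members was -0.51 on log2(FPKM + 1), beside 0.01 for all tested genes. The groups did not overlap for any of the 8; over all tested genes this held for 38.7% with knockdown above and 37.2% with knockdown below, together 75.9%. In what follows, each change is the knockdown minus the control mean of log2(FPKM + 1) ± its standard error from limma, and levels are mean FPKM ± SD (n = 3 per group).

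**Figure D1:**
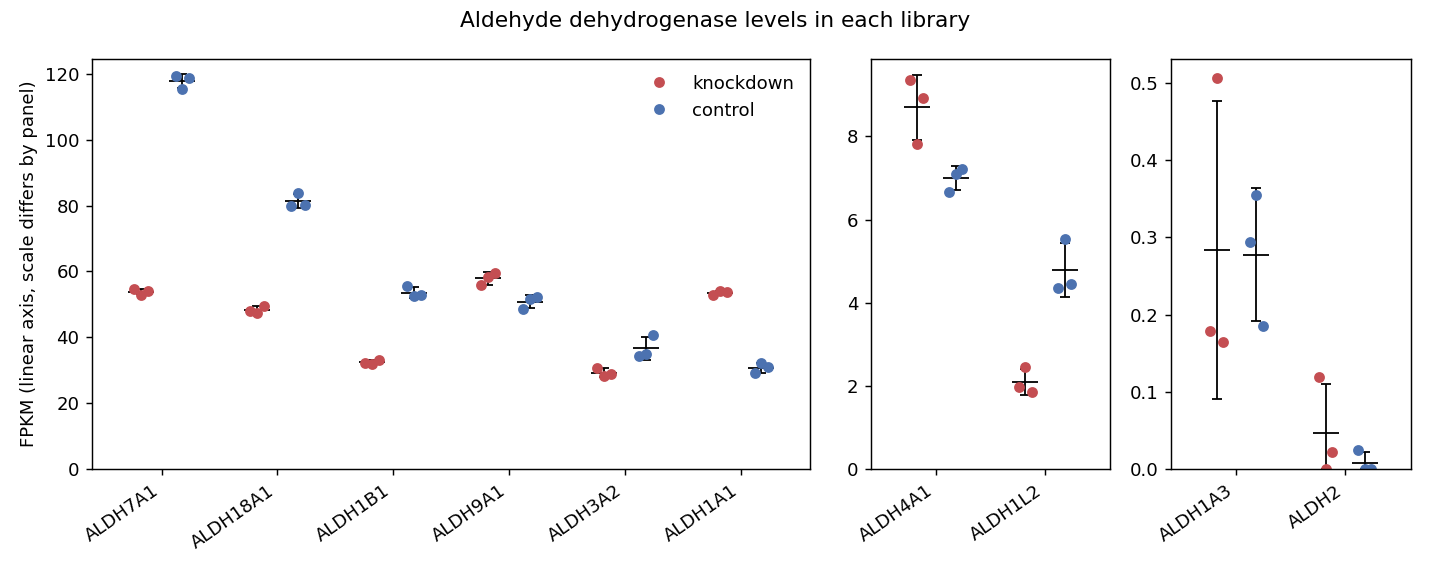
FPKM of the 10 members in each library (linear axis, a different scale in each panel), with knockdown libraries in red left of control libraries in blue, ordered by control mean; horizontal ticks are group means and error bars are SD (n = 3), cut at 0. ALDH7A1 stood at 53.0 to 54.7 FPKM in knockdown and 115 to 119 FPKM in control libraries, ALDH1A1 was higher in knockdown libraries, and ALDH1A3 and ALDH2 lay near 0 in both groups.

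The start regions of 4 members with large changes at well-expressed levels are shown, those of 3 genes that fell and of ALDH1A1, 1 of the 3 that rose. They run from 250 bases before to 50 bases from the RefSeq gene start, 5′ to 3′ on the gene's strand, in build GRCh38.p14. ALDH7A1 lies at chr5:126595170-126595469 on the minus strand, ALDH18A1 at chr10:95656662-95656961 on the minus strand, ALDH1B1 at chr9:38392452-38392751 on the plus strand and ALDH1A1 at chr9:72953004-72953303 on the minus strand. Capitals mark matches, on either strand, to the GC box with the letters GGGCGG, to the CCAAT box, which is named by its letters, or to the E-box with the letters CACGTG.
ALDH7A1: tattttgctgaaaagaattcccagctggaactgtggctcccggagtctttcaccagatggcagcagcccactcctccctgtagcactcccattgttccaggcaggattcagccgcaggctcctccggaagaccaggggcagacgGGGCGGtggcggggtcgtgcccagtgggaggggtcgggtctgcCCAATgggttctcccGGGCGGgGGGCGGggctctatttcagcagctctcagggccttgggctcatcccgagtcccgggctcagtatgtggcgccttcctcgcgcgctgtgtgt
ALDH18A1: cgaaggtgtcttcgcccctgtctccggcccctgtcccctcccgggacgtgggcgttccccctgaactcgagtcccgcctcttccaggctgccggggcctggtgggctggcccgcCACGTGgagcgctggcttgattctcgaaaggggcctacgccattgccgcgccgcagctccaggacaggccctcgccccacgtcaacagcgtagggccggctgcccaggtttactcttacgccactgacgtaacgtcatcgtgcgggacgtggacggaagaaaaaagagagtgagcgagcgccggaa
ALDH1B1: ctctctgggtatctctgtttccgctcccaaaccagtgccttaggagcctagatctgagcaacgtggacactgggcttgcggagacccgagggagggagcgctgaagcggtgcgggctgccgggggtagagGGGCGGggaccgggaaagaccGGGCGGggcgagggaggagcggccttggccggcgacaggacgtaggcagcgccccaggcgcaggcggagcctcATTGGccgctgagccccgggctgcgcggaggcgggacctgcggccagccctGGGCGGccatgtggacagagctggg
ALDH1A1: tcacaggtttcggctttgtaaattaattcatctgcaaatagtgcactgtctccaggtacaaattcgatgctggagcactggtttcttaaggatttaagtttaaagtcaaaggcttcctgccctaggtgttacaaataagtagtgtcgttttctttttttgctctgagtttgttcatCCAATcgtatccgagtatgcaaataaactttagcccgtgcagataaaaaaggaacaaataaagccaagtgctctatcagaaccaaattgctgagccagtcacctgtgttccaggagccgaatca
The ALDH1A1 window was the poorest in G and C of the 4, at 40.3% with 7 CpG pairs, against 64.3% with 17 pairs for ALDH7A1, 67.0% with 31 for ALDH18A1 and 71.3% with 27 for ALDH1B1. The other members that rose had a higher G and C content than ALDH1A1, though 1 window of ALDH4A1 had fewer CpG pairs. ALDH9A1 had 66.7% with 26 pairs, and the 2 windows of ALDH4A1 had 57.7% with 25 and 57.0% with 2. Those of ALDH3A2, which fell, had 55.0% with 12 and 73.3% with 27. The median over all 35116 RefSeq start windows was 58.7% with 14 pairs. ALDH7A1 and ALDH1B1 each held 3 GC boxes and a CCAAT box, ALDH1A1 held a CCAAT box at position -74, and ALDH18A1 held an E-box at position -136, counted from the gene start. GC boxes were present in 45.0% of all windows, CCAAT boxes in 34.6% and E-boxes in 7.26%. Windows were found for 8 of the 10 members. Of these 8, 6 held a GC box, 5 a CCAAT box and 2 an E-box, counting a member with 2 windows (ALDH3A2 and ALDH4A1) where either matched. The TATA box TATAAA, the M-box TCATGTG bound by MITF, the antioxidant response element TGACNNNGC and the amino acid response core TGATGNAA matched 0 of the 8, beside 11.5%, 2.92%, 13.3% and 3.62% of all windows. These are matches of letters only, with overlaps between motifs allowed, and say nothing about binding.

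ALDH1A1, a cytosolic enzyme that turns retinaldehyde into retinoic acid and also oxidises lipid aldehydes, rose. Its level was 53.0, 54.2 and 53.6 FPKM in knockdown libraries 1 to 3, against 29.2, 32.2 and 31.1 FPKM in control libraries 1 to 3. All knockdown libraries lay above all controls, and the knockdown values were the more tightly grouped (53.6 ± 0.600 FPKM in knockdown and 30.8 ± 1.51 FPKM in control libraries). The ratio of means was 1.74 and the change 0.78 ± 0.05 (limma adjusted p 2.3e-06). The listed locus (ENSG00000165092; hg19 chromosome 9, 75515577 to 75695358) is shared with CYP1D1P, a pseudogene.

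ALDH1A3, which makes retinoic acid from the same substrate (ENSG00000184254; hg19 chromosome 15, 101389765 to 101626271), was barely detected. It was listed at 0.180, 0.506 and 0.165 FPKM in knockdown libraries 1 to 3 and at 0.294, 0.355 and 0.185 FPKM in control libraries 1 to 3, and the groups overlapped. When every gene was tested without a filter, its change was -0.00 ± 0.13. By group means, ALDH1A1 stood 189 times as high as ALDH1A3 in knockdown and 111 times as high in control libraries. Both ratios rest on the low and scattered ALDH1A3 values, and the difference between them was not tested. ALDH1A2, the remaining retinaldehyde dehydrogenase of this subfamily, stood at 1.90, 0.199 and 0.978 FPKM in knockdown and 0.801, 0.936 and 1.08 FPKM in control libraries, with overlapping groups and knockdown library 1 the highest.

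The genes around ALDH1A1 in retinoid handling were divided. Of 19 genes of retinoid uptake, storage and oxidation, 7 were tested, of which 2 rose, 2 fell and 3 did not pass (median change -0.03). For comparison, 37.0% of all tested genes were higher and 35.4% lower, so these counts do not set the list apart. RDH10, which oxidises retinol to retinaldehyde and so supplies the substrate of ALDH1A1, rose: it stood at 17.1, 14.2 and 14.6 FPKM in knockdown and 6.91, 4.90 and 7.59 FPKM in control libraries (change 1.14 ± 0.14, limma adjusted p 0.00013). RDH11, a retinal reductase of the endoplasmic reticulum, rose slightly to 42.6 ± 1.25 FPKM in knockdown, against 38.2 ± 0.360 FPKM in control libraries. DHRS4 fell to 5.27 ± 1.60 FPKM in knockdown, against 16.8 ± 1.05 FPKM in control libraries, and has near-identical neighbouring copies, so its value depends on how shared reads were assigned. RDH13, a mitochondrial relative, fell to 9.08 ± 0.377 FPKM in knockdown, against 14.5 ± 1.38 FPKM in control libraries. DHRS3, which reduces retinaldehyde back to retinol, averaged 15.5 FPKM in knockdown and 15.9 FPKM in control libraries and did not pass. The cytochromes that degrade retinoic acid, CYP26A1, CYP26B1 and CYP26C1, averaged at most 0.079 FPKM in knockdown and 0.049 FPKM in control libraries.

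Receptors that respond to retinoic acid also moved both ways. Of 14 genes in the list of receptors and retinoic acid-induced genes, 8 were tested, of which 3 rose, 3 fell and 2 did not pass (median change -0.16). These counts were near the shares over all tested genes, 37.0% higher and 35.4% lower. RXRG, a retinoid X receptor, had the largest change of the list and fell to 26.7 ± 0.761 FPKM in knockdown, against 61.9 ± 0.391 FPKM in control libraries (-1.18 ± 0.04, limma adjusted p 1.8e-07). RARA fell to 5.55 ± 0.175 FPKM in knockdown, against 9.99 ± 0.506 FPKM in control libraries. RARB, a receptor gene that is itself induced by retinoic acid, rose to 11.2 ± 0.327 FPKM in knockdown, against 6.38 ± 0.507 FPKM in control libraries, and RXRB rose to 39.3 ± 0.737 FPKM in knockdown, against 26.9 ± 1.39 FPKM in control libraries. TGM2, another transcript induced by retinoic acid, averaged 1.26 FPKM in knockdown and 1.75 FPKM in control libraries and did not pass.

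Of the enzymes known mainly for small and fatty aldehydes, ALDH1B1 and ALDH3A2 fell and ALDH2 was below the filter. ALDH1B1, a mitochondrial enzyme of acetaldehyde and other short aldehydes (ENSG00000137124; hg19 chromosome 9, 38392660 to 38398658), fell. It stood at 32.2, 31.9 and 33.2 FPKM in knockdown libraries 1 to 3, against 55.5, 52.5 and 52.8 FPKM in control libraries 1 to 3. The groups were far apart and knockdown left 60.5% of the control mean (-0.71 ± 0.04, limma adjusted p 2.3e-06). ALDH2, the main mitochondrial acetaldehyde dehydrogenase of many tissues (ENSG00000111275; hg19 chromosome 12, 112123856 to 112247782), was near 0 FPKM: it was listed at 0.119, 0 and 0.0226 FPKM in knockdown libraries 1 to 3 and at 0.0248, 0 and 0 FPKM in control libraries 1 to 3. ALDH1B1 was therefore the only one of this mitochondrial pair above 1 FPKM in either group.

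ALDH3A2, the fatty aldehyde dehydrogenase of the endoplasmic reticulum and peroxisome (ENSG00000072210; hg19 chromosome 17, 19551448 to 19580911), had a small fall. It stood at 30.9, 28.4 and 28.8 FPKM in knockdown libraries 1 to 3, against 34.4, 35.1 and 40.6 FPKM in control libraries 1 to 3. The groups did not overlap, but control library 3 stood above the other 2 and widened the control spread (29.4 ± 1.31 FPKM in knockdown and 36.7 ± 3.42 FPKM in control libraries). The change was -0.31 ± 0.07, with a 95% interval from -0.47 to -0.15 (limma adjusted p 0.0041). In the list of 9 genes of fatty aldehyde and sphingosine pathways, 8 were tested, of which 3 rose, 2 fell and 3 did not pass (median change 0.07). Shares over all tested genes were 37.0% higher and 35.4% lower. SGPL1, the lyase that cleaves sphingosine phosphate into a fatty aldehyde handled by ALDH3A2, rose to 17.6 ± 0.619 FPKM in knockdown, against 8.34 ± 0.154 FPKM in control libraries (0.99 ± 0.05, limma adjusted p 1.4e-06). SGPP1, a phosphatase of the same lipid, rose to 9.96 ± 0.301 FPKM in knockdown, against 6.36 ± 0.695 FPKM in control libraries, and the sphingosine kinases were divided: SPHK2 rose to 13.2 FPKM in knockdown, against 9.98 FPKM in control libraries, and SPHK1 fell to 15.0 ± 1.23 FPKM in knockdown, against 19.8 ± 0.248 FPKM in control libraries. PHYH, a peroxisomal enzyme of branched fatty acid oxidation, fell to 9.64 ± 1.20 FPKM in knockdown, against 23.3 ± 0.508 FPKM in control libraries.

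The enzymes outside the family that also handle aldehydes and alcohols fell or did not pass. Of 27 listed, 13 were tested, of which 9 fell, 0 rose and 4 did not pass at an adjusted p below 0.05 from limma (median change -0.55). At an unadjusted p below 0.05, 0 were higher as well. The adjusted shares over all tested genes were 35.4% lower and 37.0% higher, and the list was chosen with earlier results known. CBR4 (change 0.14), and AOX1 and CYP2E1, which were below the filter, were called higher under some of the other settings given in the closing part. CBR3, a carbonyl reductase, had the largest fall, to 11.5 ± 0.563 FPKM in knockdown, against 46.8 ± 1.51 FPKM in control libraries (-1.94 ± 0.05, limma adjusted p 1.0e-07). AKR1B1, aldose reductase, fell to 70.3 ± 1.87 FPKM in knockdown, against 195 ± 9.13 FPKM in control libraries. GLO1, which removes methylglyoxal, fell to 88.3 ± 1.34 FPKM in knockdown, against 141 ± 8.67 FPKM in control libraries. AKR7A2, an aldehyde reductase, fell to 24.1 ± 1.91 FPKM in knockdown, against 38.1 ± 0.612 FPKM in control libraries.

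The proline enzymes ALDH18A1 and ALDH4A1, which work in opposite directions between glutamate and pyrroline carboxylate, moved in opposite directions. ALDH18A1, the first enzyme of proline synthesis from glutamate (ENSG00000059573; hg19 chromosome 10, 97365695 to 97416463), stood at 48.1, 47.3 and 49.5 FPKM in knockdown libraries 1 to 3, against 79.9, 83.9 and 80.2 FPKM in control libraries 1 to 3. It fell to 59.4% of the control mean (-0.74 ± 0.04, limma adjusted p 1.3e-06). ALDH4A1, which oxidises pyrroline carboxylate to glutamate in the breakdown of proline (ENSG00000159423; hg19 chromosome 1, 19166092 to 19283180, a locus shared with IFFO2 and TAS1R2), stood at 9.35, 7.83 and 8.93 FPKM in knockdown libraries 1 to 3, against 6.67, 7.09 and 7.23 FPKM in control libraries 1 to 3. It rose by 0.28 ± 0.08 with a 95% interval from 0.10 to 0.46 (limma adjusted p 0.012). The ratio of ALDH18A1 to ALDH4A1 ran from 5.15 to 6.04 in knockdown libraries and from 11.1 to 12.0 in control libraries.

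Most tested genes that neighbour this pair in proline, ornithine and glutamate metabolism fell. Of 18 listed, 12 were tested, of which 8 fell and 2 rose, 2 did not pass, and the median change was -0.66. Among all tested genes, 35.4% were lower and 37.0% higher. The lists were chosen with earlier results known, so this count is a description only. PYCR1, which makes proline from the product of ALDH18A1, stood at 48.6, 48.8 and 48.5 FPKM in knockdown and 110.3, 103 and 111 FPKM in control libraries (-1.14 ± 0.04, limma adjusted p 2.4e-07). OAT, which makes the same intermediate from ornithine, fell to 68.2 ± 0.242 FPKM in knockdown, against 163 ± 4.73 FPKM in control libraries. GLUD1, glutamate dehydrogenase, fell to 26.8 ± 2.12 FPKM in knockdown, against 74.1 ± 1.97 FPKM in control libraries; it is nearly identical to GLUD2, so the split of reads between them is uncertain. ODC1, which takes ornithine into polyamines, rose to 50.1 ± 0.891 FPKM in knockdown, against 18.7 ± 0.265 FPKM in control libraries (1.37 ± 0.04, limma adjusted p 1.3e-07). PRODH, which starts proline breakdown upstream of ALDH4A1, averaged 0.0762 FPKM in knockdown and 0.125 FPKM in control libraries. PRODH2 was listed at 0 FPKM in every library.

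ALDH7A1 had the largest change among the members on log2(FPKM + 1); by ratio of means, and with a pseudocount of 0.1, ALDH1L2 had the slightly lower value (-1.15, and -1.13 for ALDH7A1), a difference that was not tested. It oxidises aminoadipic semialdehyde in lysine breakdown and also betaine aldehyde (ENSG00000164904; hg19 chromosome 5, 125877532 to 125931110). It stood at 54.7, 53.0 and 54.1 FPKM in knockdown libraries 1 to 3, against 119, 115 and 119 FPKM in control libraries 1 to 3. The ranges within each group were narrow beside the gap between them, and knockdown left 45.8% of the control mean (-1.11 ± 0.04, limma adjusted p 1.6e-07). Ranked by the size of the change, it was number 1281 of the 13343 tested genes. The pseudogene ALDH7A1P1 was listed at 0.244 to 0.351 FPKM in knockdown and 0.617 to 1.00 FPKM in control libraries, and reads shared with it could have been assigned either way.

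ALDH9A1, a cytosolic enzyme of carnitine synthesis and of aminobutyraldehyde oxidation (ENSG00000143149; hg19 chromosome 1, 165631452 to 165679205), had the smallest change of the tested members. It stood at 55.8, 58.3 and 59.5 FPKM in knockdown libraries 1 to 3, against 48.7, 51.7 and 52.3 FPKM in control libraries 1 to 3. It rose by 0.18 ± 0.05 with a 95% interval from 0.08 to 0.29 (limma adjusted p 0.0069). The ratio of ALDH7A1 to ALDH9A1 ran from 0.908 to 0.981 in knockdown libraries and from 2.23 to 2.45 in control libraries. Of 10 listed lysine, choline and carnitine pathway enzymes, 4 were tested, of which 2 rose and 2 fell (median change 0.05). Over all tested genes 37.0% were higher and 35.4% lower, together 72.4%, so these counts do not set the list apart. AASS, the entry enzyme of lysine breakdown upstream of ALDH7A1, rose to 11.7 ± 0.117 FPKM in knockdown, against 7.52 ± 0.292 FPKM in control libraries. DHTKD1, which acts downstream of ALDH7A1, fell to 5.57 ± 0.0483 FPKM in knockdown, against 13.3 ± 0.186 FPKM in control libraries (-1.12 ± 0.06, limma adjusted p 8.7e-07), and GCDH, further down the pathway, fell to 17.0 ± 0.761 FPKM in knockdown, against 21.4 ± 0.860 FPKM in control libraries. TMLHE, the first enzyme of carnitine synthesis, rose to 14.6 ± 0.0222 FPKM in knockdown, against 10.7 ± 1.20 FPKM in control libraries.

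ALDH1L2, the mitochondrial formyltetrahydrofolate dehydrogenase (ENSG00000136010; hg19 chromosome 12, 105380087 to 105478355, a locus shared with C12orf45), was weakly expressed and fell. It stood at 1.97, 2.46 and 1.87 FPKM in knockdown libraries 1 to 3, against 4.37, 5.55 and 4.46 FPKM in control libraries 1 to 3. Library 2 was the highest of each group, and the groups did not overlap. Knockdown left 43.9% of the control mean, and the change of -0.90 ± 0.12 (limma adjusted p 0.00019) understates this because the added 1 weighs on low values. Its cytosolic counterpart ALDH1L1 was listed at 0.574, 0.553 and 0.533 FPKM in knockdown and 1.13, 1.54 and 1.12 FPKM in control libraries, just below the filter, and its groups did not overlap either. Of 20 folate enzymes, 19 were tested, of which 13 fell, 2 rose and 4 did not pass (median change -0.33). Beside these counts, 35.4% of all tested genes were lower and 37.0% higher, and the list was chosen with earlier results known. AMT, among the falls, passed the filter through its control libraries, at 0.261, 0.705 and 0.598 FPKM in knockdown and 1.21, 2.04 and 1.21 FPKM in control libraries. TYMS, thymidylate synthase, fell by 2.09 ± 0.07 (limma adjusted p 1.6e-07), and SHMT1, the cytosolic serine hydroxymethyltransferase, fell by 1.55 ± 0.05 (limma adjusted p 1.4e-07). MTHFD2L, a mitochondrial folate dehydrogenase, rose to 19.5 ± 0.703 FPKM in knockdown, against 9.39 ± 1.35 FPKM in control libraries.

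**Figure D2:**
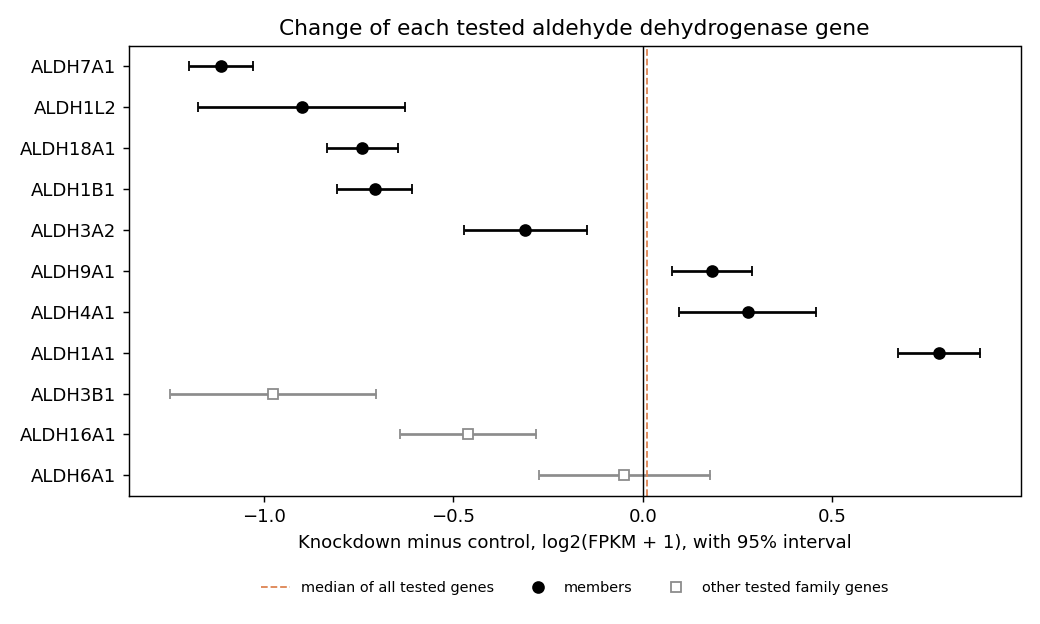
Change of each tested aldehyde dehydrogenase gene, knockdown minus control on log2(FPKM + 1), with its 95% interval from limma; filled circles are the 8 tested members, open squares the 3 other tested genes of the family, and the dashed line is the median of all tested genes (0.01). ALDH7A1 lies lowest at -1.11, ALDH1A1 highest at 0.78, and the interval of ALDH6A1 includes 0.

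The order of the members by level differed between the groups. In knockdown libraries the means ran ALDH9A1 (57.9 FPKM), ALDH7A1 (53.9), ALDH1A1 (53.6), ALDH18A1 (48.3), ALDH1B1 (32.4), ALDH3A2 (29.4), ALDH4A1 (8.70) and ALDH1L2 (2.10). In control libraries they ran ALDH7A1 (118 FPKM), ALDH18A1 (81.3), ALDH1B1 (53.6), ALDH9A1 (50.9), ALDH3A2 (36.7), ALDH1A1 (30.8), ALDH4A1 (7.00) and ALDH1L2 (4.79). The library ranges of neighbours in these orders did not overlap, except for ALDH7A1 and ALDH1A1 in knockdown libraries. ALDH1A1 stood at rank 3 in knockdown and rank 6 in control libraries.

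Summed over the 10 members, the level was lower after knockdown and more evenly spread. The sum was 286, 284 and 290 FPKM in knockdown libraries 1 to 3, against 378, 383 and 388 FPKM in control libraries 1 to 3, a ratio of 0.748. ALDH7A1 made up 18.8% ± 0.261 of the sum in knockdown and 30.7% ± 0.746 in control libraries. ALDH1A1 made up 18.7% ± 0.335 in knockdown and 8.04% ± 0.338 in control libraries, and ALDH9A1 20.2% ± 0.606 in knockdown and 13.3% ± 0.349 in control libraries. The share of ALDH18A1 was 16.9% ± 0.218 in knockdown and 21.2% ± 0.596 in control libraries. The share of ALDH3A2 overlapped between the groups, at 9.95% to 10.8% in knockdown and 9.09% to 10.5% in control libraries. Without ALDH7A1, the ratio of the summed levels was 0.877. No p is given for these sums, because the members were named with results known.

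**Figure D3:**
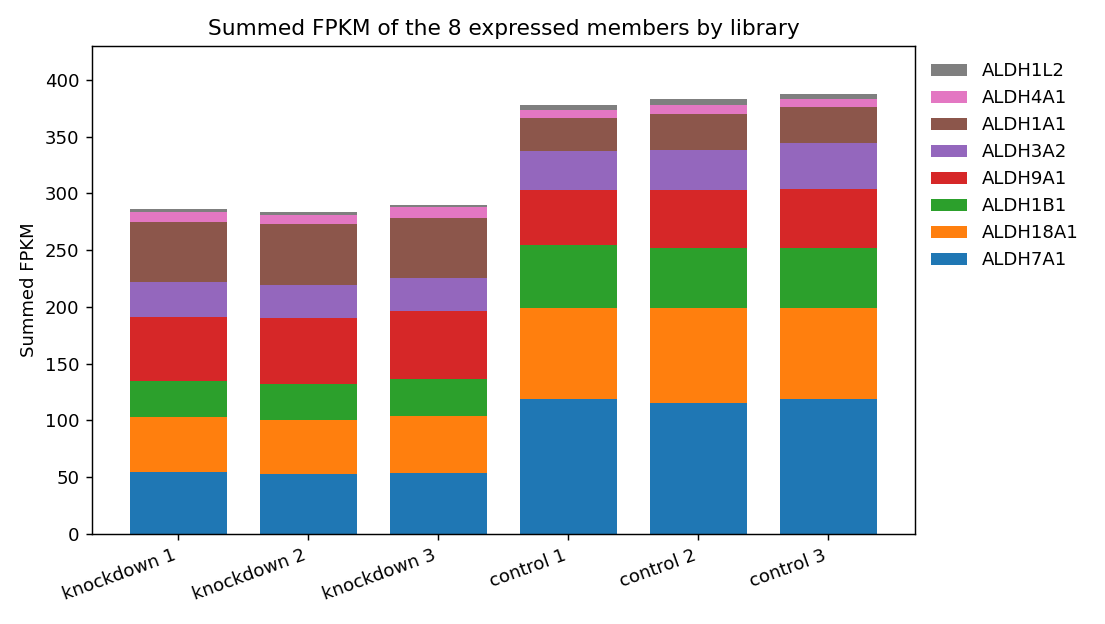
Summed FPKM of the 8 expressed members in each library (linear axis from 0), with knockdown libraries left of control libraries and 1 colour per gene. With ALDH1A3 and ALDH2, which are not drawn and lay near 0, sums were 284 to 290 FPKM in knockdown and 378 to 388 FPKM in control libraries. In knockdown libraries the ALDH7A1 segment is smaller and the ALDH1A1 segment larger than in controls.

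The other 9 genes of the family were mostly weakly expressed. Only ALDH3B1, ALDH6A1 and ALDH16A1 passed the filter, of which 2 fell and 1 did not pass, beside 35.4% lower over all tested genes. ALDH3B1, a membrane-bound enzyme of lipid aldehydes, was listed at 0.710, 0.787 and 0.960 FPKM in knockdown and 2.80, 2.30 and 2.63 FPKM in control libraries (-0.98 ± 0.12, limma adjusted p 0.00012). It passed the filter through its control libraries. ALDH16A1, which lacks the usual catalytic cysteine in mammals, fell to 9.76 ± 1.06 FPKM in knockdown, against 13.8 ± 0.369 FPKM in control libraries, and its listed locus is shared with several genes, RPL13A among them. ALDH6A1, of valine and thymine breakdown, averaged 1.99 ± 0.158 FPKM in knockdown and 2.09 ± 0.0317 FPKM in control libraries; its change of -0.05 had a 95% interval from -0.27 to 0.18. ALDH3A1, ALDH3B2, ALDH5A1 and ALDH8A1 had group means of at most 0.167 FPKM in knockdown and 0.235 FPKM in control libraries.

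**Figure D4:**
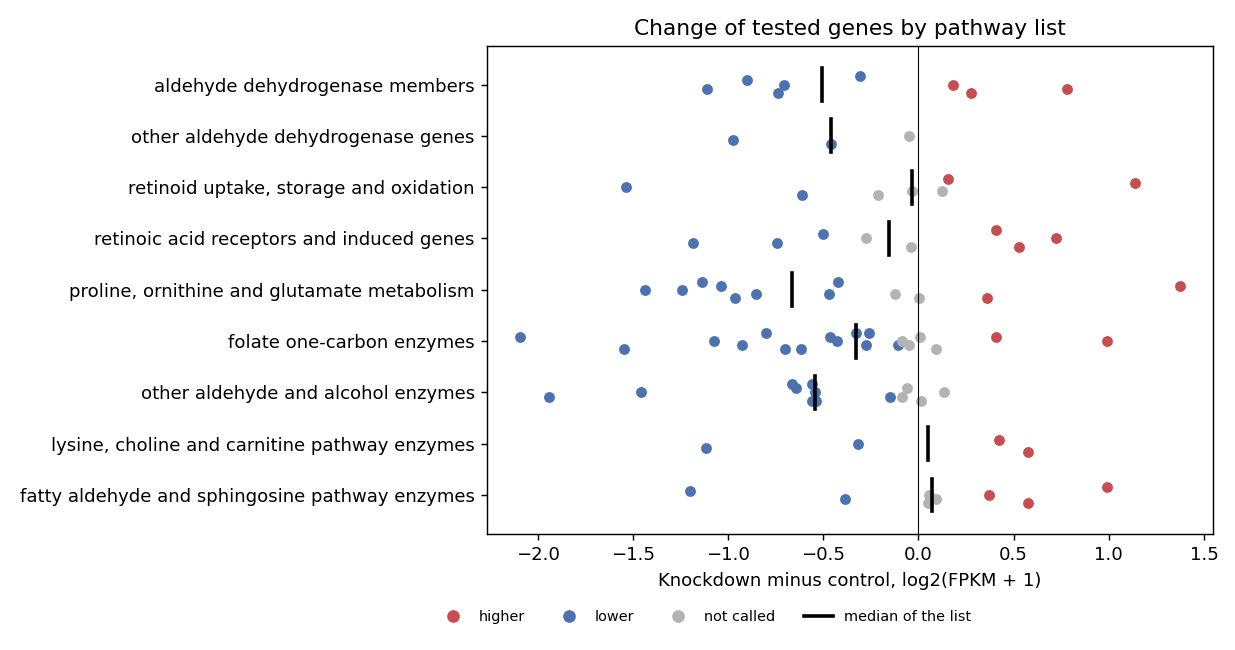
Change of every tested gene in the member set and in the 8 pathway lists, knockdown minus control on log2(FPKM + 1); red points rose, blue points fell and grey points did not pass (limma adjusted p threshold 0.05), and black bars are list medians. Medians run from -0.66 for proline, ornithine and glutamate metabolism to 0.07 for fatty aldehyde and sphingosine pathways, with members at -0.51.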

How the data were processed

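RNA-seq libraries of MDA-MB-435 cells (3 knockdown, 3 control) were prepared with a stranded mRNA kit (1 ug total RNA) and read as paired 100 base reads, per the labels. The authors deposited FPKM values for 57150 genes, per the file headers. Per the submitters' processing notes, hg19, TopHat 1.4.1 and Cuffdiff 2.2.0 were used, with no roles stated; for the annotation, the strand setting and any scaling, the sources used here give nothing. Loci are hg19 as deposited and can span neighbouring genes. 1 blank line was left out.

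The 13343 genes averaging 1 FPKM or more were fitted on log2(FPKM + 1) with limma 3.58.1 in R 4.3.3 (moderated test with mean-variance trend, two-sided, Benjamini-Hochberg adjustment over all tested genes, threshold 0.05). The code was tried on simulated data with far fewer changed genes than were called here. That trial therefore does not show how the fit behaves when most genes are called. No count model was run on FPKM, and the added 1 shrinks changes of weak genes. The members and lists were chosen with earlier results of these data known; from each list up to 4 called genes with separate groups and the largest change were named, and further list genes were named after their values were seen; 1 gene that this rule names is not reported here. Start windows came from RefSeq (GRCh38.p14), matched by symbol, and exon counts from GENCODE by Ensembl ID. The alternatives tried were the pseudocount 0.1, a 5 FPKM filter or none, a replicate block, scaling to equal medians, quality weights per sample, each library left out and, added after seeing the data, equal total FPKM.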

Additional observations from a re-analysis of the deposited data

How the results depend on the processing

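All 8 tested members kept their direction and their call in each of the 13 refits that tested them; ALDH1L2 was not tested at the filter of 5 FPKM, where 4 rather than 5 members fell. The least firm were ALDH4A1 (change 0.23 to 0.34, largest adjusted p 0.047), ALDH9A1 (0.15 to 0.25, largest adjusted p 0.030) and ALDH3A2 (-0.35 to -0.24, largest adjusted p 0.017), by limma. The ratio of summed members was 0.763 under median scaling, 0.786 with equal total FPKM (the total was lower in the knockdown libraries) and 0.877 without ALDH7A1. The count of other aldehyde dehydrogenase genes that fell was 1 at the filter of 5 FPKM, where only ALDH16A1 was tested. Retinoid handling genes that rose numbered 1 without the filter. Other aldehyde and alcohol enzymes that rose numbered 2 without the filter (AOX1 and CYP2E1), 1 under median scaling and 1 with equal total FPKM (CBR4 in both), and 0 to 2 with 1 library left out: 1 without control replicate 1, 2 without control replicate 2 and 1 without control replicate 3, where CYP2E1 passed the filter and, without replicate 2, CBR4 was called too. CYP2E1 passed there through its knockdown libraries, which weigh more in the mean when a control library is left out. Its call in those refits is therefore not independent of the filter. The causes of the other moves were not tested. Without the filter limma warned that its variance model was unreliable; there ALDH1L1 was called lower (-0.54, adjusted p 0.0021) and neither ALDH1A3 nor ALDH2 was called.

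The labels do not say whether replicate numbers pair the libraries. Deviations of same-numbered libraries had correlations of -0.03, -0.07 and 0.02, under the 0.1 taken to show pairing. With the replicate block, 4971 genes were higher and 4773 lower, and the members again numbered 3 higher and 5 lower. Absolute depth is unknown, so no detection limit is given for ALDH2 or other genes listed at 0.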

Other observations

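The coding region of ALDH1B1 lies in 1 exon in the GENCODE transcript with its longest coding sequence, whereas the other 9 members have 10 (ALDH3A2) to 23 (ALDH1L2) coding exons. ALDH1B1 and ALDH18A1, with 17 coding exons, had like changes, -0.71 ± 0.04 and -0.74 ± 0.04, and ALDH7A1 with 19 had -1.11 ± 0.04. ALDH1A1, with 13 coding exons, rose by 0.78. Across tested coding genes, the median change was 0.00 for the 555 genes with 1 coding exon and -0.01 for the 10559 with more, and 76.0% and 75.4% of them were called. The FPKM are sums per gene, so isoforms were not analysed here.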
